A study of Homo sapiens with 15 samples.

Results

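Aminoacyl-tRNA synthetases join each amino acid to its tRNA, and their genes were followed in MDA-MB-231 cells, a human triple-negative breast cancer line, after loss or inhibition of CtBP2. CtBP2 is a transcriptional corepressor that forms dimers when it binds NADH. The members are the 36 synthetase genes with a probe on the array, taken from a fixed list of symbols, 20 for cytosolic enzymes and 16 for mitochondrial enzymes, of 30916 genes in all. The list does not hold every mitochondrial enzyme. Human GARS and KARS each give both a cytosolic and a mitochondrial enzyme from one gene and stayed with the cytosolic class.

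RNA was measured on 15 Agilent whole human genome arrays, 5 biological replicates per treatment. The shCtBP2 cells carried a stable short hairpin RNA against CtBP2 and had been selected with puromycin. The other arrays held cells treated for 24 h with HIPP or with P4, which are the 2-hydroxyimino and the 2-hydrazone derivatives of 3-phenylpropanoate, given as sodium salts at unequal concentrations. Treated RNA carried Cy5 and control RNA Cy3 on every array with no dye swap, so a dye effect of a probe cannot be told apart from a change against the control. Per the labels the Cy3 channel always held untreated cells, but the study's text describes a scrambled hairpin as the control of the shCtBP2 cells. Nothing states whether one control extract served several arrays. If it did, a ratio tested against 0 leaves out the spread between controls. On these arrays 65.2 to 77.5% of gene spots stood well above background in the treated channel and 64.9 to 81.0% in the control channel. Correlations of log2 ratios between arrays of a treatment over all genes ran from 0.28 to 0.56 for shCtBP2, from 0.43 to 0.76 for HIPP and from 0.0039 to 0.69 for P4. The arrays lay on 4 slides. P4 replicates 1 to 4 shared slide 1, which was scanned on a separate day. P4 replicate 5 was on slide 2 beside the first 3 HIPP arrays. The last 2 HIPP arrays were on slide 3 beside the first 2 shCtBP2 arrays, and the last 3 shCtBP2 arrays filled slide 4. CTBP2 itself, the target of the hairpin, was lower on 5 of 5 shCtBP2 arrays, by a mean log2 of −0.41 ± 0.11 (SD, n = 5), without passing the test (limma adjusted p = 0.0595). In these cells the study reports less CtBP2 mRNA by real-time PCR and less protein by western blot than with the scrambled hairpin. The mesenchymal markers VIM, CD44, AXL, CAV1 and MSN were well above background on all 15 arrays. PGR and CDH1, which the line should lack, were well above background on 0 arrays, ESR1 was so on some, and GATA3, FOXA1 and EPCAM, markers of receptor-positive epithelium, were so on all of them.

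Most synthetases recognize a single amino acid and the tRNAs that decode it, and spend ATP to link them. In the cytosol of animal cells, the enzymes for aspartate, glutamate with proline, isoleucine, lysine, leucine, methionine, glutamine and arginine sit together in the multisynthetase complex on the scaffold proteins AIMP1, AIMP2 and EEF1E1, and the others are not part of it. Mitochondria translate their few proteins with separate enzymes, nearly all made from nuclear genes whose names end in 2. When amino acids run short, the kinase GCN2, the product of EIF2AK4, senses uncharged tRNA and phosphorylates eIF2. The transcription factor ATF4 is then translated and induces genes of amino acid synthesis and transport and several cytosolic synthetases, through composite sites known as C/EBP-ATF response elements.

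The core of that element, TGATGNAA, was searched on both strands of the RefSeq promoter windows (build GRCh38.p14), each 300 bases long with 250 before and 50 after a gene's start. It lay in the windows of 7 of the 16 cytosolic members with a window and of 1 of the 14 mitochondrial members with one. Of all 27305 genes with a window, 4.46% held it. The 28-base stretches around each match are shown because matches lay mostly in cytosolic members, a feature that the choice of members did not use. They are written in the direction of the gene with the match in capitals, and TTNCATCA is the core on the opposite strand.
AARS, chr16:70289676-70289703 (minus strand): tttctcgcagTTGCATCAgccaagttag
CARS, chr11:3057408-3057435 (minus strand): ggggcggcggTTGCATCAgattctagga
GARS, chr7:30594835-30594862 (plus strand): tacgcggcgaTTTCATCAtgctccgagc
IARS, chr9:92293693-92293720 (minus strand): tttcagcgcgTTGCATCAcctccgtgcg
MARS, chr12:57488054-57488081 (plus strand): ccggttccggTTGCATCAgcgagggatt
NARS, chr18:57621805-57621832 (minus strand): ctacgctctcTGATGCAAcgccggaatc
TARS, chr5:33440957-33440984 (plus strand): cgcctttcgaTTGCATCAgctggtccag
YARS2, chr12:32756077-32756104 (minus strand): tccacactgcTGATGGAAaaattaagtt
Counted from the gene's start, the first base of the match lay at −187 in AARS, −33 in GARS, −13 in IARS, −4 in MARS and −2 in CARS, at 3 in TARS and 15 in NARS, and at −197 in YARS2. The windows of WARS held no match, and DARS, LARS, VARS, YARS, AARS2 and VARS2 have no window in the sequences used here. Of the 7 cytosolic genes with a match, 6 were tested with P4 and 4 of them, AARS, GARS, NARS and TARS, were higher and 0 lower. Of 8 tested without a match SARS and WARS were higher and 2 were lower, beside 17.1% higher and 14.8% lower of all genes tested. With HIPP, AARS was higher and IARS lower of 6 tested with a match, and 2 were higher and 5 lower of 8 tested without one, beside 24.8% and 23.9% of all genes. MARS was not tested with P4 and GARS was not tested with HIPP. Whether the match and the calls go together was not tested.

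All 36 members were measured on all 5 arrays of every treatment and stood well above background in both channels on all 15 arrays. Values are log2 ratios of treated over control signal, and "called" means a limma adjusted p under 0.05 over all 27515 genes tested in a treatment. Genes whose 10 signals of a treatment varied least were not tested, a filter that favours genes that differ, and it left 22 members tested for shCtBP2, 29 for HIPP and 28 for P4. Directions follow the dye-corrected signals, under which HIPP moved about as many genes up as down, whereas the study's own list for HIPP lies nearly all on the lower side. With HIPP, 10 of the 29 members tested were higher and 14 lower, beside 24.8% of all genes tested called higher and 23.9% called lower. With P4, 10 of 28 were higher and 5 lower, beside 17.1% and 14.8% of all genes. In shCtBP2 cells 0 of 22 were higher and 2 were lower, beside 6.58% and 6.94%. At an unadjusted limma p under 0.05, 1 was higher and 7 lower there. The methods' t-test with Benjamini-Hochberg adjustment called 6 members higher and 6 lower with HIPP, 3 and 2 with P4, and 1 and 3 in shCtBP2 cells. Without the filter, all 36 members were tested, and the counts were 11 higher and 15 lower for HIPP, 10 and 5 for P4, and 0 and 2 for shCtBP2, beside 23.1% and 21.8%, 15.5% and 14.1%, and 5.54% and 5.87% of all genes in the same order. For the unadjusted limit and for the methods' test, the share of all genes called is not given here. In bulk RNA, fewer cells with a transcript and less of it per cell cannot be told apart.

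Besides the adjusted p, the study asks for a change of 1.5-fold for shCtBP2, 2.5-fold for HIPP and 1.8-fold for P4. Past both limits lay DARS, lower in shCtBP2 cells, WARS, higher with HIPP and with P4, and KARS, lower with P4. Over all genes the shares past both limits were 3.34% higher and 3.22% lower for shCtBP2, 3.42% and 3.61% for HIPP, and 4.29% and 4.17% for P4.

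The tryptophan enzyme WARS had the largest increase of the 36 members with either compound. Its log2 ratios on HIPP arrays 1 to 5 were 1.73, 1.77, 1.76, 1.49 and 1.06, a mean of 1.56 ± 0.30 (SD, n = 5, limma adjusted p = 3.01e-08) or 2.95-fold. On the P4 arrays they were 1.07, 1.52, 1.36, 1.42 and 1.44, a mean of 1.36 ± 0.17 (SD, n = 5, limma adjusted p = 6.99e-07) or 2.57-fold. Every array of either compound lay above every shCtBP2 array, whose values were 0.073, 0.044, 0.20, 0.093 and 0.17. WARS was not tested in shCtBP2 cells, since its channel signals there varied too little to pass the filter. WARS was higher on each slide apart, by 1.75 and 1.28 with HIPP on slides 2 and 3 and by 1.35 and 1.44 with P4 on slides 1 and 2. The alanine enzyme AARS had the next largest increase with HIPP, at 1.01, 1.03, 1.20, 1.00 and 0.73 on the 5 arrays, a mean of 0.99 ± 0.17 (SD, n = 5, limma adjusted p = 1.19e-06). With P4 it read 0.36, 1.02, 0.63, 0.91 and 0.58, a mean of 0.70 ± 0.26 (SD, n = 5, limma adjusted p = 0.000126), a call that was lost with slide as a fixed block. In shCtBP2 cells all 5 AARS ratios were negative, from −0.42 to −0.20, so no shCtBP2 array overlapped those of the compounds. For WARS and AARS alike, the share of all genes that separate in this way was not counted.

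**Figure D1:**
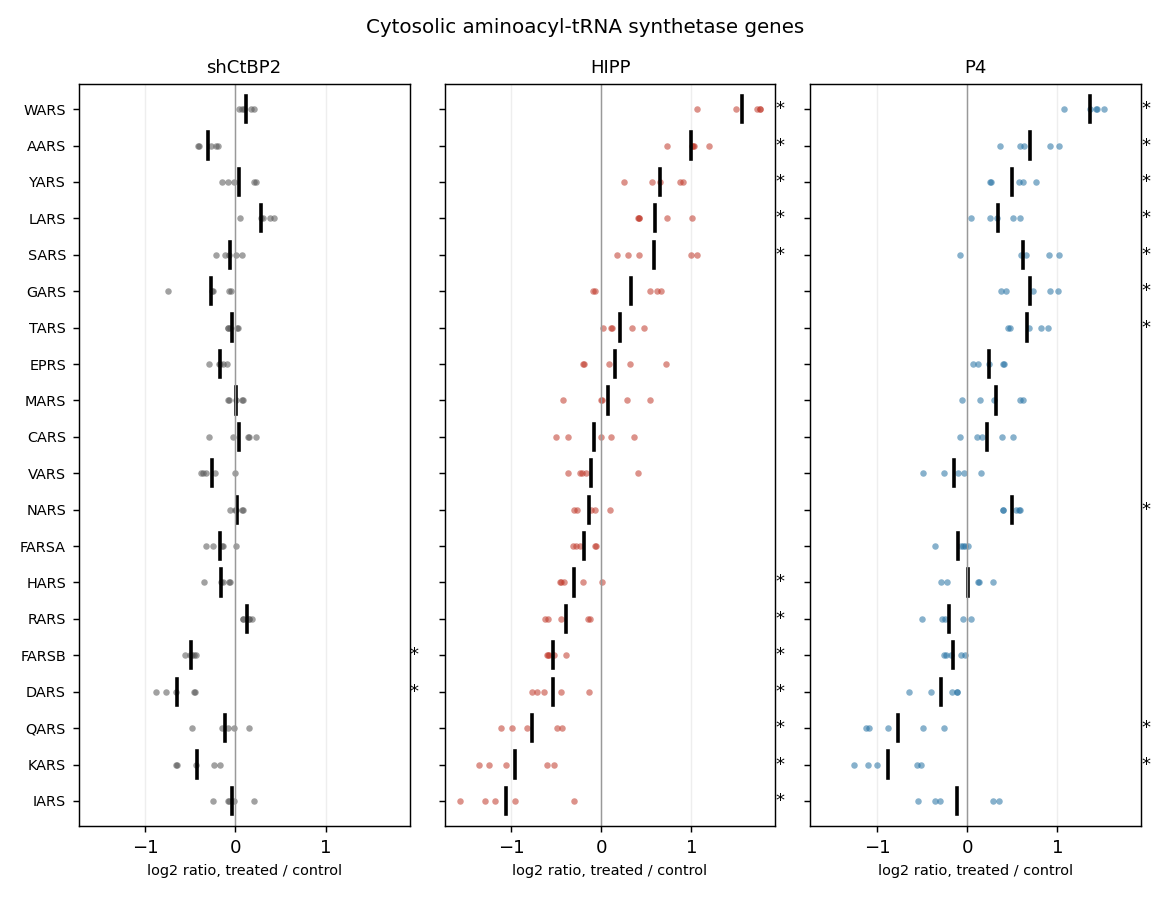
Log2 ratio of treated over control signal (horizontal axis) for the 20 cytosolic synthetase genes (vertical axis) in shCtBP2, HIPP and P4 cells. Dots are arrays, black bars are means over 5 arrays, and an asterisk at the right edge marks an adjusted p under 0.05. WARS and AARS lie highest with HIPP, and KARS and QARS lie low with both compounds.

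The tyrosine, serine and leucine enzymes were also higher with both compounds, by smaller amounts. With slide as a fixed block none of these was called higher with P4, and median centring removed the HIPP call of SARS. YARS was at 0.87, 0.56, 0.91, 0.65 and 0.25 with HIPP, a mean of 0.65 ± 0.27 (SD, n = 5, limma adjusted p = 0.000186), and at 0.25, 0.76, 0.58, 0.62 and 0.26 with P4, a mean of 0.49 ± 0.23 (limma adjusted p = 0.00348). SARS spread more, with 1.06, 0.42, 0.99, 0.30 and 0.18 on the HIPP arrays and −0.079, 1.02, 0.91, 0.60 and 0.65 on the P4 arrays. Its means were 0.59 ± 0.41 (SD, n = 5, limma adjusted p = 0.00508) and 0.62 ± 0.43 (limma adjusted p = 0.00685), and P4 replicate 1 lay below 0. LARS had means of 0.60 ± 0.27 on the HIPP arrays (n = 5, SD, limma adjusted p = 0.000292) and 0.34 ± 0.22 with P4 (limma adjusted p = 0.0232), but its 2 probes disagreed, as described below. The P4 call of LARS was lost without P4 replicate 1, 4 or 5, at an adjusted p of 0.0622, 0.0981 and 0.0582.

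Another 3 free enzymes, those for glycine, threonine and asparagine, were called higher with P4. With slide as a fixed block, GARS (0.77, limma adjusted p = 0.107) and NARS (0.49, limma adjusted p = 0.0749) lost that call. NARS, which charges asparagine, was at 0.40, 0.40, 0.59, 0.58 and 0.54 on the P4 arrays, a mean of 0.50 ± 0.096 (SD, n = 5, limma adjusted p = 0.000231), and averaged −0.13 ± 0.16 with HIPP (limma adjusted p = 0.152). NARS was called lower with HIPP under normexp and loess (−0.12, limma adjusted p = 0.0437) and under median centring (−0.26, limma adjusted p = 0.0118). TARS, the threonine enzyme, was at 0.82, 0.48, 0.46, 0.68 and 0.90, a mean of 0.67 ± 0.20 (SD, n = 5, limma adjusted p = 8.68e-05), and averaged 0.21 ± 0.19 with HIPP (limma adjusted p = 0.0631), which normexp and loess called higher (0.21, limma adjusted p = 0.0321). GARS, the glycine enzyme of both compartments, was at 0.43, 0.37, 0.91, 1.01 and 0.73 with P4, a mean of 0.69 ± 0.28 (SD, n = 5, limma adjusted p = 0.00212). On the HIPP arrays GARS took high and low values of 0.62, −0.068, 0.54, 0.66 and −0.096 and did not pass the filter on variation. The compounds were not tested against each other, since their concentrations differed.

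The enzymes for lysine and glutamine, which sit in the multisynthetase complex, were lower with both compounds. KARS was at −0.52, −1.06, −0.60, −1.36 and −1.25 on the HIPP arrays, a mean of −0.96 ± 0.38 (SD, n = 5, limma adjusted p = 6.20e-05), and at −1.26, −0.55, −0.51, −1.0 and −1.10 on the P4 arrays, a mean of −0.88 ± 0.34 (limma adjusted p = 0.000384). QARS was at −0.44, −0.82, −0.49, −1.0 and −1.11 on the HIPP arrays and at −1.10, −0.26, −0.49, −0.88 and −1.13 on the P4 arrays, with means of −0.77 ± 0.30 (SD, n = 5, limma adjusted p = 0.000336) and −0.77 ± 0.38 (limma adjusted p = 0.000873). All 10 ratios of each gene lay below 0, and in shCtBP2 cells KARS was also below 0 on 5 of 5 arrays, at −0.43 ± 0.23 (limma adjusted p = 0.0600). For these and AARS the probes are printed, since they carry opposite changes within the cytosolic class.
AARS probe, chr16:68845377-68845436 (minus strand): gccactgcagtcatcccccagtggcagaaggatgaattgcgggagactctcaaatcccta
KARS probe, chr16:74227109-74227168 (minus strand): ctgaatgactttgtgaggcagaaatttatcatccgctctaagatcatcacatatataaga
QARS probe, chr3:49112840-49113015 (minus strand): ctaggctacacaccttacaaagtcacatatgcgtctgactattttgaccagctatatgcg
The coordinates come from the array's own annotation and refer to build hg17. The QARS position spans more than the 60 bases of the probe, as for a probe across an exon junction.

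Other complex enzymes were lower with HIPP. IARS, for isoleucine, was at −0.30, −1.29, −0.95, −1.58 and −1.19, a mean of −1.06 ± 0.48 (SD, n = 5, limma adjusted p = 8.27e-05). With P4 its values of −0.54, 0.29, 0.36, −0.30 and −0.36 lay on both sides of 0, and median centring of background-subtracted signals turned the sign of their mean. DARS, for aspartate, averaged −0.54 ± 0.26 on the HIPP arrays (n = 5, SD, limma adjusted p = 0.000881), and its P4 values, from −0.65 to −0.11, were not tested. RARS, for arginine, averaged −0.39 ± 0.24 (SD, n = 5, limma adjusted p = 0.00404) with HIPP and −0.21 ± 0.22 with P4 (limma adjusted p = 0.113), a mean that median centring turned to 0.12.

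Outside the complex, HARS and FARSB were lower with HIPP. FARSB, the beta subunit of the phenylalanine enzyme, had −0.53, −0.58, −0.60, −0.59 and −0.40 on the HIPP arrays, a mean of −0.54 ± 0.086 (SD, n = 5, limma adjusted p = 1.42e-05), and averaged −0.15 ± 0.10 with P4 (limma adjusted p = 0.0975), which normexp and loess called lower (−0.19, limma adjusted p = 0.00146). The alpha subunit, FARSA, was not tested for either compound and averaged −0.19 ± 0.12 and −0.099 ± 0.15. HARS, for histidine, was at −0.41, −0.21, −0.45, 0.0099 and −0.46 with HIPP, a mean of −0.30 ± 0.20 (SD, n = 5, limma adjusted p = 0.0209), and its adjusted p rose to 0.0577, 0.0723 and 0.0789 when replicate 1, 3 or 5 was left out.

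Set side by side, 1 of 8 complex members (LARS) was higher and 5 were lower with HIPP, all 8 being tested, against 4 higher and 2 lower of the 9 free members tested, beside 24.8% and 23.9% of all genes. With P4, 1 of 6 complex members tested was higher and 2 were lower, against 7 higher and 0 lower of 11 free members (1 lower at an unadjusted limma p under 0.05), beside 17.1% and 14.8% of all genes. By the methods' t-test, 1 complex member was higher and 3 were lower with HIPP, against 2 and 0 free members, and with P4 0 were higher and 2 lower in the complex, against 3 and 0. The share of all genes called by that test is not given here, so these counts have no background to be read against. With slide as a fixed block, WARS and TARS were the only free members still called higher with P4. The per-array median over the 8 complex members averaged −0.40 ± 0.14 with HIPP and −0.11 ± 0.18 with P4 (SD, n = 5). Over the 12 free members it averaged 0.075 ± 0.19 and 0.43 ± 0.12, beside a median over all genes of 0.067 ± 0.040 and 0.059 ± 0.12. On each of the 10 arrays of the compounds the free median lay above the complex median. In shCtBP2 cells the medians were close together, at −0.089 ± 0.045 for the complex and −0.11 ± 0.073 for the free enzymes.

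**Figure D2:**
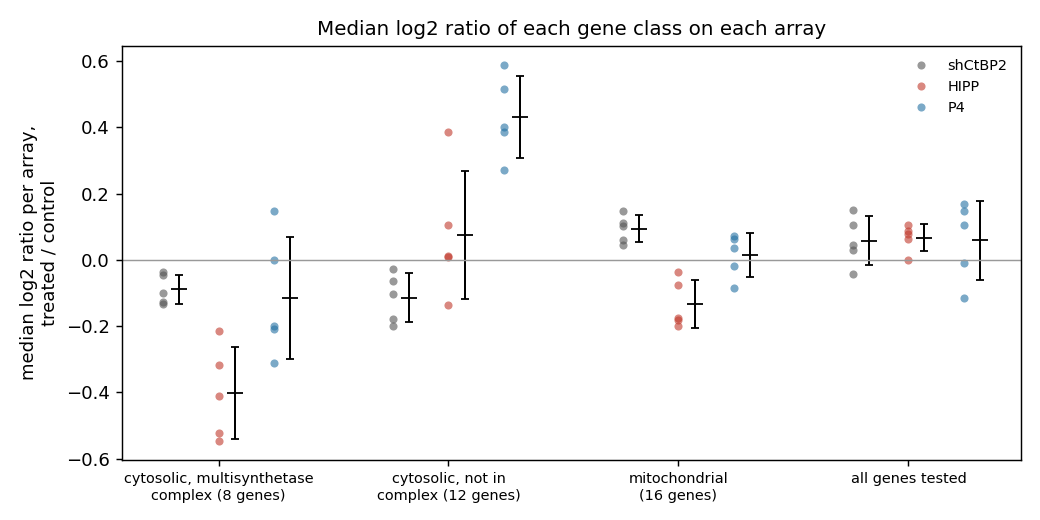
Median log2 ratio per array (vertical axis) over the 8 cytosolic enzymes of the multisynthetase complex, the 12 free cytosolic enzymes, the 16 mitochondrial enzymes and all genes tested, for each treatment. Each point is an array, and the black marks beside the points are means with the SD over 5 arrays. With P4 the free cytosolic enzymes lie at 0.43 ± 0.12, above the complex enzymes at −0.11 ± 0.18.

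Of the 12 mitochondrial members tested for HIPP, 5 were higher and 7 lower, beside 24.8% and 23.9% of all genes tested. The filter on variation left out 4 members, and without it 6 of 16 were higher, 8 were lower, and FARS2 and YARS2 were not called. TARS2, for threonine, was at 0.71, 0.91, 0.86, 0.99 and 1.02, a mean of 0.90 ± 0.12 (SD, n = 5, limma adjusted p = 4.74e-07), and AARS2, for alanine, was at 0.59, 0.90, 0.52, 1.02 and 1.01, a mean of 0.81 ± 0.24 (limma adjusted p = 8.37e-06). Every HIPP value of both genes lay above every shCtBP2 value, and the share of all genes that separate in this way was not counted. VARS2, for valine, averaged 0.49 ± 0.21 (SD, n = 5, limma adjusted p = 0.000286) with values of 0.22, 0.57, 0.32, 0.71 and 0.63. HARS2, for histidine, averaged 0.42 ± 0.21 (SD, n = 5, limma adjusted p = 0.000821) with values of 0.52, 0.57, 0.47, 0.044 and 0.47, and RARS2, for arginine, averaged 0.50 ± 0.44 (limma adjusted p = 0.0152) with values of 0.77, 0.85, 0.73, −0.19 and 0.32. Of these 5, RARS2 was the least steady, since HIPP replicate 4 lay below 0 and its adjusted p rose to 0.0538, 0.0653 and 0.0566 without replicate 1, 2 or 3. The call of RARS2 was also lost under median centring.

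The 7 lower genes were MARS2, EARS2, IARS2, CARS2, SARS2, NARS2 and LARS2. CARS2, for cysteine, was at −0.73, −0.72, −0.73, −0.51 and −0.60, a mean of −0.66 ± 0.10 (SD, n = 5, limma adjusted p = 5.81e-06). IARS2, for isoleucine, was at −0.43, −0.83, −0.68, −0.96 and −0.73, a mean of −0.72 ± 0.20 (SD, n = 5, limma adjusted p = 9.81e-06), and EARS2, for glutamate, at −0.61, −0.94, −0.52, −1.14 and −0.76, a mean of −0.79 ± 0.25 (limma adjusted p = 0.000129). In all 3 genes every HIPP array lay below 0. The asparagine and leucine enzymes changed less, with means of −0.43 ± 0.090 for NARS2 (SD, n = 5, limma adjusted p = 0.000107) and −0.38 ± 0.10 for LARS2 (limma adjusted p = 0.000356). MARS2, for methionine, averaged −0.87 ± 0.76 (SD, n = 5, limma adjusted p = 0.00459), with a wide spread of −0.31, −1.02, −0.0089, −1.96 and −1.08, and under normexp and loess its mean was −0.28 (limma adjusted p = 0.0384). SARS2, for serine, averaged −0.50 ± 0.47 (SD, n = 5, limma adjusted p = 0.0101) and was below 0 on 4 of 5 arrays, with HIPP replicate 4 at 0.33. Leaving that array out gave −0.71 for SARS2, −0.60 for MARS2, 0.51 for HARS2 and 0.67 for RARS2, each still called.

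**Figure D3:**
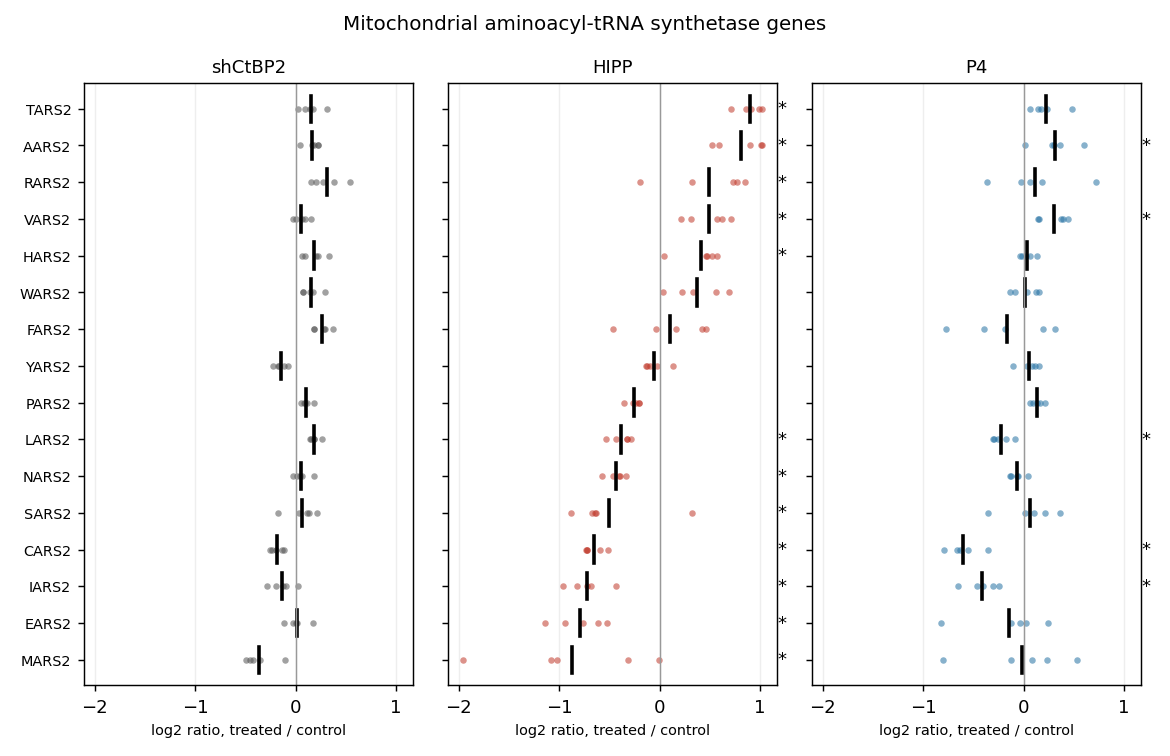
Log2 ratio of treated over control signal (horizontal axis) for the 16 mitochondrial synthetase genes (vertical axis) in shCtBP2, HIPP and P4 cells. Dots are arrays, black bars are means over 5 arrays, and an asterisk at the right edge marks an adjusted p under 0.05. With HIPP the genes run from TARS2 at 0.90 to MARS2 at −0.87, a wider range than the shCtBP2 arrays show.

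With P4, 2 of 11 mitochondrial members tested were higher and 3 lower, beside 17.1% and 14.8% of all genes. CARS2 was at −0.79, −0.63, −0.36, −0.56 and −0.67, a mean of −0.60 ± 0.16 (SD, n = 5, limma adjusted p = 5.67e-05), close to its HIPP value. IARS2 was at −0.66, −0.24, −0.31, −0.46 and −0.40, a mean of −0.41 ± 0.16 (SD, n = 5, limma adjusted p = 0.00279), and LARS2 averaged −0.22 ± 0.091 (limma adjusted p = 0.0239). The higher genes were AARS2 at 0.31 ± 0.21 (SD, n = 5, limma adjusted p = 0.0237) and VARS2 at 0.30 ± 0.14 (limma adjusted p = 0.0163). Both genes were above 0 on all 5 P4 arrays, but each call was lost when any 1 of several arrays was left out. Without P4 replicate 1 the adjusted p of AARS2 was 0.0799. Without replicate 4 it was 0.0685 for AARS2 and 0.0662 for VARS2, and without replicate 5 it was 0.0567 and 0.0613. IARS2 and LARS2 were not called with slide as a fixed block, at −0.51 (limma adjusted p = 0.0939) and −0.32 (limma adjusted p = 0.159). LARS2 also had an adjusted p of 0.0571, 0.0676 and 0.0855 without P4 replicate 2, 3 or 5. TARS2, MARS2, EARS2 and SARS2, called with HIPP, averaged 0.22 ± 0.16, −0.017 ± 0.50, −0.14 ± 0.40 and 0.065 ± 0.27 with P4 and were not called, and without P4 replicate 1 the means of EARS2 and MARS2 turned to 0.028 and 0.18. TARS2 fell just short (limma adjusted p = 0.0509), and with replicate number as a block it was called higher.

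Genes of the same amino acid did not always move together. AARS and AARS2 were both higher with either compound, whereas with HIPP LARS was higher and LARS2 lower, SARS higher and SARS2 lower, and HARS lower and HARS2 higher. With slide as a fixed block neither AARS nor AARS2 was called higher with P4. The LARS probes disagreed, as described below, and SARS2 was above 0 on HIPP replicate 4. Median centring removed the HIPP call of SARS, and leaving out any of several single arrays removed that of HARS. HARS1 and HARS2, as the genes are now called, lie head to head on chromosome 5 with 84 bases between their starts (GRCh38.p14, chr5:140673905-140691370 on the minus strand and chr5:140691455-140699305 on the plus strand). HARS2 is named here from a probe that the array lists under an older name. The 2 probes that the array lists as HARS2 belong by accession to DTD1, a D-aminoacyl-tRNA deacylase, and were left out. DTD1 averaged −0.47 ± 0.36 (SD, n = 5, limma adjusted p = 0.0323) on the shCtBP2 arrays and 0.47 ± 0.27 (limma adjusted p = 0.0164) on the P4 arrays.

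A gene's value is the mean over its probes, and 29 members had 1 probe, 6 had 2 and FARSB had 3. In LARS, MARS and FARSB the probes had means of opposite sign in a treatment with a compound, and the sequences of 4 of their probes are printed so that they can be placed.
LARS probe, chr5:145527945-145528004 (minus strand): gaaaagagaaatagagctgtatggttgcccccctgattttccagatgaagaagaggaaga
LARS probe, chr5:145474059-145480177 (minus strand): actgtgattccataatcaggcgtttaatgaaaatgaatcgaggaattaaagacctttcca
MARS probe, chr12:56191888-56192086 (plus strand): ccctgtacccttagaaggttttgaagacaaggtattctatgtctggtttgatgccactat
FARSB probe, chr2:223314507-223314566 (minus strand): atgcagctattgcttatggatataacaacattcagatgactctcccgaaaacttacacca
The first LARS probe had 0.90, 1.25, 0.79, 2.03 and 1.47 on the HIPP arrays, a mean of 1.29 ± 0.50, and the second had −0.081, −0.41, 0.050, −0.0070 and −0.0083, a mean of −0.091 ± 0.18 (SD, n = 5). Only the first was above 0 on every HIPP array. The printed MARS probe averaged −0.37 ± 0.58 with HIPP and −0.13 ± 0.59 with P4 (SD, n = 5), while the other, at chr12:56196640-56196699 on hg17, averaged 0.52 ± 0.26 and 0.77 ± 0.029 and was above 0 on all 10 arrays. The MARS1 and DDIT3 genes overlap by 65 bases at their ends on opposite strands (GRCh38.p14, chromosome 12), and DDIT3 was higher with both compounds. Whether that MARS probe lies in the overlap was not determined here. As a mean of both probes, MARS was not called with HIPP and not tested with P4. The printed FARSB probe averaged −0.62 ± 0.26 with P4, against −0.13 ± 0.12 and 0.29 ± 0.18 for the other two. With HIPP all 3 FARSB probes had means below 0. HARS and VARS2 also had probes of opposite sign, HARS with P4 at 0.063 and −0.14, and VARS2 in shCtBP2 cells at 0.19 and −0.070. CARS2 had probes of one sign that differed in size with P4, at −1.01 ± 0.40 and −0.19 ± 0.14. With the brightest probe alone in place of the mean, the P4 calls of LARS (0.37, limma adjusted p = 0.148) and CARS2 (−0.19, limma adjusted p = 0.151) were lost, and MARS was called higher with HIPP (0.52, limma adjusted p = 0.000235).

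**Figure D4:**
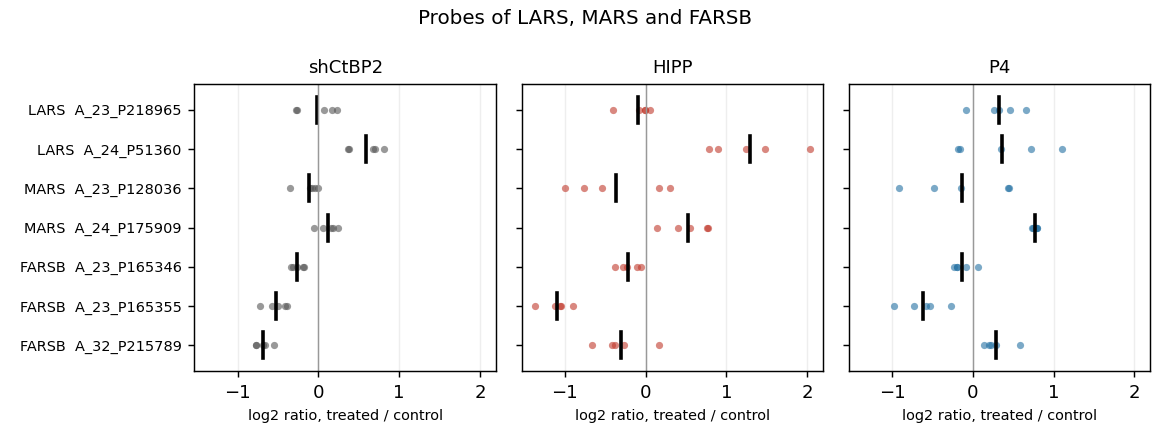
Log2 ratio of treated over control signal (horizontal axis) for the single probes of LARS, MARS and FARSB (vertical axis), whose probes have means of opposite sign with a compound, in shCtBP2, HIPP and P4 cells. Dots are arrays and black bars are means over 5 arrays. With HIPP the LARS probes average −0.09 and 1.29.

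Genes around the synthetases were counted from lists of fixed symbols. Of 8 genes of the amino acid response, 7 were higher and 1 lower with HIPP and with P4, and 3 of 7 tested were higher in shCtBP2 cells. Of all genes tested, 24.8% were higher and 23.9% lower with HIPP, 17.1% and 14.8% with P4, and 6.58% were higher in shCtBP2 cells. ATF4, the transcription factor of the response, averaged 1.60 ± 0.17 over the HIPP arrays (n = 5, SD, limma adjusted p = 4.84e-08), 1.51 ± 0.25 with P4 (limma adjusted p = 5.77e-07) and 0.40 ± 0.26 in shCtBP2 cells (limma adjusted p = 0.0275). ASNS, the asparagine synthetase, averaged 1.51 ± 0.28, 1.69 ± 0.060 and 0.33 ± 0.12 in the same order, with a limma adjusted p of 2.07e-08, 5.67e-08 and 0.0329 (SD, n = 5). The remaining genes higher with both compounds were SESN2, which restrains mTORC1, TRIB3, a pseudokinase, CHAC1, which degrades glutathione, PSAT1 of serine synthesis, and DDIT3, which encodes CHOP. SESN2 averaged 1.99 and 1.70 with HIPP and P4, TRIB3 1.46 and 1.84, CHAC1 1.49 and 1.79, PSAT1 0.67 and 1.58, and DDIT3 1.31 and 0.88. The study's own HIPP list has DDIT3 on the lower side. EIF2AK4, the sensor kinase, was the lower gene, at −0.51 ± 0.31 for HIPP (n = 5, SD, limma adjusted p = 0.000781) and −0.38 ± 0.083 with P4 (limma adjusted p = 0.0114).

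Of the 3 scaffold genes of the complex, AIMP2 was lower, at −0.78 ± 0.23 for HIPP (n = 5, SD, limma adjusted p = 1.71e-05) and for P4 at −0.48 ± 0.21 (limma adjusted p = 0.00257). EEF1E1 was not called in any treatment, and AIMP1 was not called with P4 and was tested in no other treatment. XPOT, the exporter of tRNA from the nucleus, was higher with P4 at 0.84 ± 0.36 (SD, n = 5, limma adjusted p = 0.000185) and averaged −0.16 ± 0.27 with HIPP (limma adjusted p = 0.297). Among 6 partners of mitochondrial charging, 3 passed the filter on variation for HIPP and 2 of them were lower, beside 23.9% of all genes, namely MTFMT, the formyltransferase of the initiator tRNA, at −0.67 ± 0.43 (SD, n = 5, limma adjusted p = 0.00227) and QRSL1, a subunit of the glutamine amidotransferase, at −0.93 ± 0.30 (limma adjusted p = 2.57e-05). With P4, of 6 tested and beside 14.8% of all genes lower and 17.1% higher, MTFMT was lower at −0.43 ± 0.41 (SD, n = 5, limma adjusted p = 0.0447) and GATB, another amidotransferase subunit, higher at 0.44 ± 0.12 (limma adjusted p = 0.00164). In shCtBP2 cells 1 of 6 was called, beside 6.94% of all genes lower, namely TUFM, the mitochondrial elongation factor, lower at −0.30 ± 0.078 (SD, n = 5, limma adjusted p = 0.0309).

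**Figure D5:**
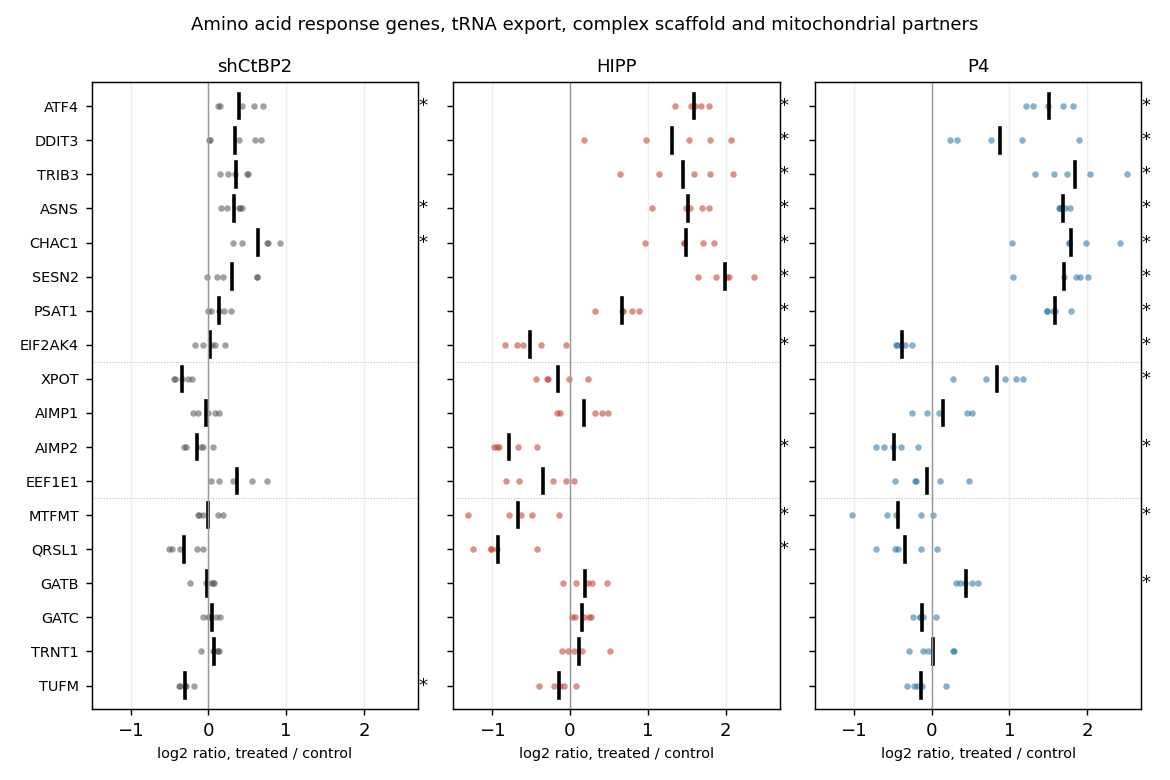
Log2 ratio of treated over control signal (horizontal axis) for genes that work with the synthetases (vertical axis), grouped by dotted lines into mitochondrial charging partners, complex scaffold with tRNA export, and amino acid response. Dots are arrays, black bars are means over 5 arrays, and an asterisk at the right edge marks an adjusted p under 0.05. With both compounds 7 of the 8 amino acid response genes are higher and EIF2AK4 is lower.

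In shCtBP2 cells 2 members were called, both lower and both cytosolic. DARS was at −0.77, −0.89, −0.67, −0.46 and −0.46, a mean of −0.65 ± 0.19 (SD, n = 5, limma adjusted p = 0.00152), and FARSB was at −0.48, −0.56, −0.51, −0.44 and −0.46, a mean of −0.49 ± 0.046 (limma adjusted p = 0.000351). Both ranges overlapped those of HIPP. With replicate number as a block, 4 cytosolic members were lower and 1 higher in shCtBP2 cells, since KARS (−0.43, limma adjusted p = 0.0337), AARS (−0.30, limma adjusted p = 0.0473) and LARS (0.29, limma adjusted p = 0.0449) were then called. The share of all genes called under that block is not given here. The same block also brought in TARS2 with P4 (0.22, limma adjusted p = 0.0422) and the difference of KARS between HIPP and shCtBP2 (−0.53, limma adjusted p = 0.0383). The median over the cytosolic members lay below that over the mitochondrial members on 5 of 5 shCtBP2 arrays, by −0.19 ± 0.026 (SD, n = 5). The same difference of medians was 0.037 ± 0.12 with HIPP and 0.18 ± 0.15 with P4, where the arrays lay on both sides of 0. Over the members that passed the filter it was 0.27 for HIPP and 0.32 for P4, with median centring it was 0.28 for P4, and without HIPP replicate 4 it was −0.0043 for HIPP.

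The compounds were set against shCtBP2 cells by a limma contrast of the log2 ratios, in which a dye effect common to all arrays cancels. Of the 17 members tested in both, 4 were higher and 2 lower with HIPP than in shCtBP2 cells, beside 12.3% and 14.1% of all genes. The higher ones were AARS by 1.30 ± 0.14 (SE, limma adjusted p = 9.27e-06), TARS2 by 0.75 ± 0.11 (SE, limma adjusted p = 0.000190), AARS2 by 0.64 ± 0.14 (SE, limma adjusted p = 0.00274) and YARS by 0.61 ± 0.15 (SE, limma adjusted p = 0.00826). The lower ones were IARS2 at −0.59 ± 0.13 (SE, limma adjusted p = 0.00259) and CARS2 at −0.47 ± 0.11 (SE, limma adjusted p = 0.00416). For P4, 4 of 18 were higher and 1 lower, beside 6.16% and 5.95% of all genes, but with slide as a fixed block 0 of these differences were called, beside 0.955% and 1.12% of all genes. AARS was higher by 1.00 ± 0.14 (SE, limma adjusted p = 0.000328), GARS by 0.97 ± 0.20 (SE, limma adjusted p = 0.00585), NARS by 0.48 ± 0.11 (SE, limma adjusted p = 0.00879) and FARSB by 0.34 ± 0.097 (SE, limma adjusted p = 0.0362), and CARS2 was lower at −0.42 ± 0.11 (SE, limma adjusted p = 0.0204). The FARSB difference lost its call without any 1 of shCtBP2 replicates 1 to 5 or of P4 replicates 3 to 5, with an adjusted p of 0.0621 to 0.0986, and it fell short under normexp and loess (0.13, limma adjusted p = 0.156) and with the brightest probe (0.13, limma adjusted p = 0.481). CARS2 for P4 lost it without shCtBP2 replicate 3 or P4 replicate 5, at 0.0501 and 0.0554. It also lost it with the brightest probe, which averaged −0.19 with P4 and −0.060 in shCtBP2 cells.

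WARS, IARS, QARS and other members missed the filter in shCtBP2 cells and could be compared only without it. All 36 were then tested, and for HIPP 8 were higher and 9 lower than in shCtBP2 cells, beside 12.6% and 14.1% of all genes, and for P4 6 were higher and 3 lower, beside 6.26% and 6.25%. WARS differed by 1.45 ± 0.14 for HIPP (SE, limma adjusted p = 5.99e-06) and 1.25 ± 0.14 for P4 (SE, limma adjusted p = 8.88e-05). IARS differed by −1.02 ± 0.23 for HIPP (SE, limma adjusted p = 0.00414) and was not called for P4. QARS was lower for both, at −0.65 ± 0.20 (SE, limma adjusted p = 0.0226) and −0.65 ± 0.20 (limma adjusted p = 0.0426). TARS was higher for P4 by 0.71 ± 0.13 (SE, limma adjusted p = 0.00227). Of the mitochondrial members, 3 were higher and 6 lower for HIPP, and 0 higher and 2 lower for P4, the latter being CARS2 and LARS2.

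With slide as a fixed block, 5 cytosolic members were called higher and 6 lower with HIPP, and 4 mitochondrial members higher and 7 lower, beside 18.7% and 19.96% of all genes under that block. With P4, 2 cytosolic members were higher in place of 8, beside 5.34% of all genes in place of 17.1%, namely WARS at 1.20 (limma adjusted p = 0.00518) and TARS at 0.91 (limma adjusted p = 0.0134). KARS and QARS were still lower with P4, at −1.42 and −1.33, and CARS2 at −0.57, beside 6.01% of all genes, while 0 mitochondrial members were higher. The mean of KARS in shCtBP2 cells, which was not called, turned to 0.060. Slide 1 held P4 arrays only, so that slide and treatment can be separated there through P4 replicate 5 alone.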

How the data were processed

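RNA of MDA-MB-231 cells was measured on 2-colour Agilent arrays, 5 per treatment. The authors scanned the arrays and ran Agilent Feature Extraction 9.5.3.1, which corrected the background and the dye difference, and deposited the resulting intensity values of both channels together with log10 ratios per spot, which the value table repeats after rounding. Here the log2 ratio of the deposited treated (Cy5) over control (Cy3) intensity was taken, 78 to 265 flagged spots per array were left out, and spots were averaged by probe and then by gene. Probes were assigned by accession, then by name. Genes measured on at least 3 of 5 arrays were kept, which differs from the limit on missing values in the methods. The 11% with the lowest interquartile range over the 10 channel signals of a treatment were removed, a percentile taken from the methods.

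The ratios of all 15 arrays were fitted with limma 3.58.1 in R 4.3.3 and tested against 0, with Benjamini-Hochberg adjustment over all genes tested (two-sided). The labels call the arrays of a treatment biological replicates. Replicate numbers are shared between the treatments. Deviations from the treatment means correlated at 0.14 to 0.34 in the 5 same-number pairs of shCtBP2 with P4. The range was 0.071 to 0.30 between shCtBP2 and HIPP, and −0.010 to 0.46 between HIPP and P4. Only shCtBP2 with P4 passed a limit of 0.1 in every same-number pair. Pairs of unlike number ran from −0.48 to 0.46 and also passed 0.1 in places. The limit therefore cannot show that the numbers pair arrays, and the labels name no pairing. Precision is limited by having 5 arrays per treatment. The script was tested on simulated data. The members and lists were chosen with earlier results of these data known.

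Genes were named by a rule: in each treatment and class the first 5 called members of 1 direction on every array by size, members called against the direction of most of their class, and members whose probes had opposite signs. Alternatives were normexp (offset 50) with loess, median centring of background-subtracted signals, the value table, no filter on variation, a filter on dim probes, the brightest probe, slide and replicate number as blocks, separate fits, the methods' t-test, and leaving out arrays. The median over only the members that passed the filter was added after seeing the data. Columns with the software's own error estimates and p-values were not used.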

Additional observations from a re-analysis of the deposited data

Results flagged for a closer look

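In 4 of 114 groups of 5 arrays, 1 array stood far from the others by Dixon's test, which chance gives in about 1 group in 20. These were HIPP replicate 4 for VARS (0.41, the others below 0), HARS2 (0.044) and SARS2 (0.33), and P4 replicate 1 for FARSA (−0.35).

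The response to a compound differed from that to the hairpin in the limma contrast for AARS (1.30), YARS (0.61), AARS2 (0.64), TARS2 (0.75), CARS2 (−0.47) and IARS2 (−0.59) with HIPP minus shCtBP2. With P4 minus shCtBP2 it differed for AARS (1.00), GARS (0.97), NARS (0.48), FARSB (0.34) and CARS2 (−0.42), of which 0 were called with slide as a fixed block. The FARSB difference was also lost under normexp and loess, and with the brightest probe those of FARSB and CARS2 were both lost. All are differences of log2 ratios.

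In RARS (−0.52), LARS2 (−0.56) and PARS2 (−0.36) every HIPP array was below 0 and every shCtBP2 array above 0, and LARS2 did the same with P4 (−0.41). The filter on variation kept these differences out of the main contrast, so they were not tested there. The share of all genes that separate in this way was not counted.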

How the results depend on the processing

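Of the gene values, 30 changed sign under at least 1 alternative, and 0 of these were called (lowest adjusted p of 0.0600). Median centring turned IARS with P4 from −0.11 to 0.068, RARS with P4 from −0.21 to 0.12 and MARS with HIPP from 0.078 to −0.031, and normexp with loess turned HARS with P4 from 0.0035 to −0.027. The cytosolic minus mitochondrial median for HIPP turned from 0.037 to −0.0043 without HIPP replicate 4. The adjusted threshold together with the fold threshold left 1 cytosolic gene lower for shCtBP2, 1 higher and 0 lower for HIPP, and 1 higher and 1 lower for P4, and 0 mitochondrial genes in either direction for HIPP or P4. The methods' t-test with Benjamini-Hochberg adjustment called 3 cytosolic genes higher and 3 lower, and 3 mitochondrial genes higher and 3 lower, for HIPP. For P4 it called 3 cytosolic genes higher, and 0 mitochondrial genes higher and 0 lower, and for shCtBP2 1 mitochondrial gene higher. Slide as a fixed block gave 2 cytosolic genes higher, 0 mitochondrial genes higher and 1 lower for P4, 1 mitochondrial gene higher for shCtBP2 and 0 differences between P4 and shCtBP2, and slide as a random block gave 4 cytosolic genes lower for shCtBP2. With each treatment fitted alone, shCtBP2 had 4 cytosolic genes lower and 2 mitochondrial genes higher and 1 lower, and P4 had 0 mitochondrial genes higher. For shCtBP2, 1 cytosolic gene was higher with normexp and loess and with median centring, 4 were lower with the filter on dim probes, and 1 mitochondrial gene was lower in the value table. Leaving out GARS and KARS left 1 cytosolic gene lower with P4. Without the filter on variation 17 genes differed between HIPP and shCtBP2 and 9 between P4 and shCtBP2, of more genes tested, and with the brightest probe 3 did for P4. The cytosolic minus mitochondrial median for shCtBP2 was −0.16 with median centring, −0.22 with the brightest probe and −0.28 over the members that passed the filter, which gave 0.27 for HIPP and 0.32 for P4. Under normexp and loess MARS2 with HIPP shrank from −0.87 to −0.28 and was still called. Over all tested values of members, slide as a fixed block removed 19 calls and the methods' t-test 23, and median centring removed those of SARS (0.46, adjusted p = 0.0672) and RARS2 (0.35, adjusted p = 0.140) for HIPP. The cause of these shifts was not tested, save where fewer or more genes were tested. Shares of all genes are given only for the main fit, the fold threshold, the fit without the filter and slide as a fixed block.

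Leaving out 1 array at a time gave 5 to 6 cytosolic genes higher and 6 to 7 lower for HIPP, 7 to 8 higher for P4, and 4 to 5 mitochondrial genes higher for HIPP. For P4 it gave 0 to 3 mitochondrial genes higher (1 without replicate 1, 0 without replicate 4 and 0 without replicate 5) and 2 to 3 lower. Differences from shCtBP2 numbered 6 to 7 for HIPP and 3 to 5 for P4, with 3 without shCtBP2 replicate 3 or without P4 replicate 5.

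With replicate number as a block, 1 cytosolic gene was higher and 4 were lower for shCtBP2, and no call changed other than those 3, TARS2 with P4 and the difference of KARS between HIPP and shCtBP2. Set against each other treatment, arrays correlated best with their own number in 13 of 30 cases.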

Other observations

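The mitochondrial proline and tryptophan enzymes, PARS2 and WARS2, missed the filter on variation with HIPP. Tested without it, PARS2 was lower at −0.25 ± 0.064 (SE, limma adjusted p = 0.00482), with values of −0.36 to −0.20 on the 5 arrays, and WARS2 was higher at 0.37 ± 0.093 (SE, limma adjusted p = 0.00488), with values of 0.037 to 0.69. Neither gene was called with P4. CTBP2 was higher with HIPP at 0.57 ± 0.36 (SD, n = 5, limma adjusted p = 0.00256). On the P4 arrays it averaged 0.17 ± 0.35 (limma adjusted p = 0.344).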
